A study of Anguilla anguilla with 12 samples.

Results

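The list of microRNA (miRNA) hairpins predicted from eel liver held 820 entries. Of these, 282 had reads from both arms but no listed zebrafish miRNA with the same seed and no second entry of their mature sequence. They were chosen by 3 properties of the list. No zebrafish miRNA with the same seed was given as an example, the mature sequence occurred in 1 entry only, and at least 1 star read was counted. Unmatched means below only that no such example was listed. The hairpins were not compared with miRNA sequences outside the list, so known miRNAs may be among them. The 282 made up 62.8% of the 449 unmatched entries whose mature sequence was listed once. Because the star read count was used to choose them, star reads are given below as a description and nothing is supported with them.

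A miRNA is made from a hairpin in which 2 arms are paired and joined by a loop. Drosha trims the base of the hairpin in the nucleus and Dicer removes the loop in the cytoplasm, which leaves a short duplex with overhanging 3′ ends. One strand, called mature, usually stays bound to an Argonaute protein, and the other, called star, is mostly degraded. The arm is called 5p or 3p by its place in the hairpin. The seed, bases 2 to 8 of the mature strand, sets which messenger RNAs are recognised. Reads from both arms of a hairpin are therefore what a processed hairpin is known to leave.

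The livers came from European eels (Anguilla anguilla) at the yellow stage, when they feed and grow. There were 6 animals from the Gironde Estuary, which the study calls polluted, and 6 from Arcachon Bay, which it calls pristine. Total RNA was isolated with a kit for small RNA. The list gives 1 read count per hairpin and arm with no division by animal, so values per eel, a spread between eels and a comparison of the sites are not given here. Hairpins are not replicates, so shares of hairpins are set side by side below without a test.

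The 282 hairpins lay on 269 scaffolds, 141 on each strand. Together they held 568296 mature, 28872 star and 356 loop reads. This was 0.208% of the mature reads of the list with each mature sequence counted once. The reads were concentrated: the most abundant hairpin held 63.2% of the mature reads of the 282, the first 4 held 83.5% and the first 10 held 90.2%. The 4 most abundant hairpins are shown first because they carry most reads, and 3 others because their arms were nearly balanced or their star arm led. Each is the whole listed precursor, 5′ to 3′, with the mature arm in capitals.
Scaffold 2789: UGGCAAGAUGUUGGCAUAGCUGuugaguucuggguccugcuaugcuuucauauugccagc
Scaffold 199925: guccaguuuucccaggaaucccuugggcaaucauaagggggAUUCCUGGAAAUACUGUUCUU
Scaffold 198: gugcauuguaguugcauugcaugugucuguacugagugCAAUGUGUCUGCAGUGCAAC
Scaffold 1254: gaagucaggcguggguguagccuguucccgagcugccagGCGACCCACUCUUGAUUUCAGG
Scaffold 3242: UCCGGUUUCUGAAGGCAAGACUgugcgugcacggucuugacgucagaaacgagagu
Scaffold 15666: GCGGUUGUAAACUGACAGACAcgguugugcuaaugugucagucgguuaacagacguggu
Scaffold 371: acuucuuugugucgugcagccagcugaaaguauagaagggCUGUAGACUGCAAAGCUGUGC

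The first of these (scaffold 2789:35687-35746, minus strand) had 358999 mature and 116 star reads. Its star arm thus held 0.0323% of the reads of both arms (exact Clopper-Pearson 95% interval 0.0267% to 0.0387%). Intervals of this kind cover counting error only. The second (scaffold 199925:71-132, plus strand) had 80310 mature and 7477 star reads, the highest star count of the 282, a star share of 8.52%. The third (scaffold 198:279126-279183, minus strand) had 19655 mature, 5249 star and 97 loop reads, a star share of 21.1%. The fourth (scaffold 1254:159847-159907, plus strand) had 15634 mature and 218 star reads, or 1.38% from the star arm. The first had its mature sequence at 5p and the other three at 3p.

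The next 6 by mature reads had between 4390 and 8062. The hairpin of scaffold 204 had 8062 mature reads and 1 star read, the lowest star share of all at 0.0124%. Its predicted fold was unusual: 45.5% of its mature bases were paired (median of the 282 78.3%). Between its arms lay 39 nt (median 15). The hairpin of scaffold 8003 had 8013 mature and 610 star reads, and that of scaffold 14306 had 7293 and 1120. The hairpins of scaffolds 15899 (5249 mature and 2198 star reads), 3707 (4736 and 39) and 1810 (4390 and 359) followed. Star shares among the first 10 thus ran from 0.0124% to 29.5%, and did not follow the order of the mature reads.

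**Figure D1:**
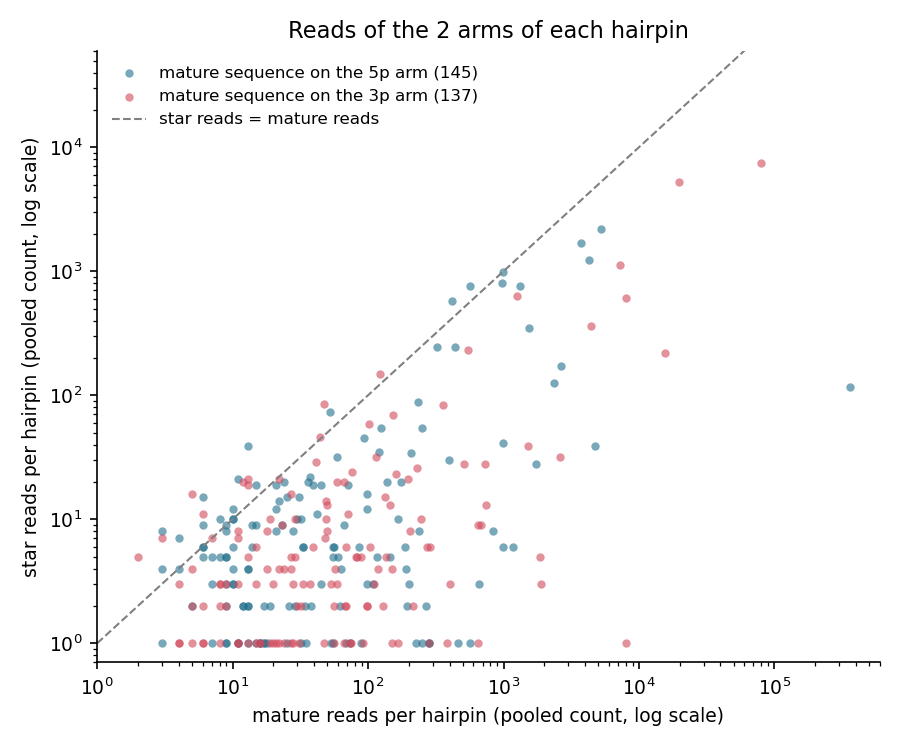
Mature reads (horizontal axis) and star reads (vertical axis) of each of the 282 hairpins, both as pooled counts on log scales, coloured by the arm that holds the mature sequence (145 on 5p, 137 on 3p). Points on the dashed line have equal reads from both arms; 23 hairpins lie above it, none of them with more than 566 mature reads.

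Mature reads fell into all size classes. Fewer than 10 mature reads were counted in 44 hairpins (15.6%), 10 to under 100 in 148 (52.5%), 100 to under 1000 in 67 (23.8%), 1000 to under 10000 in 19 (6.74%) and 10000 or more in 4. The median was 43 mature reads (quartiles 13 and 158). Among the 167 single-entry unmatched hairpins with 0 star reads it was 33, and among the 72 single-entry seed-matched hairpins with star reads 13477.5. At least 100 mature reads were counted in 31.9% of the 282 hairpins, in 19.2% of those with 0 star reads and in 93.1% of the seed-matched ones.

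Star evidence was thin in most hairpins. A single star read was counted in 59 of the 282, 2 to 9 in 127, 10 to under 100 in 73, 100 to under 1000 in 17 and 1000 or more in 6. The median was 5 star reads. Up to 3 star reads, the number that a count of 0 still allows, were counted in 111. On the border of the rule, the hairpins with 1 star read and most mature reads were those of scaffold 204 (8062 mature reads), scaffold 136 (644) and scaffold 5581 (563). Just outside it, with 0 star reads, the hairpins with most mature reads had 1780 (aUCCCGGAcgagccccca, scaffold 427251:816-884), 1354 (uAAGCUGAgcucuguuuagacu, scaffold 2110:73816-73877) and 1166 (cGUGUGCUcuguuagaguuga, scaffold 66:92052-92107). In these 3 a star share of up to 0.169%, 0.222% and 0.257% would go undetected. Their mature reads lie within the range of the 282, so a single read decides on which side of the rule such hairpins fall.

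The star share of the 282 hairpins had a median of 12.8% (quartiles 3.91% and 29.9%) and ran up to 76.2%. It differed by read class, partly by arithmetic, since a hairpin with fewer than 10 mature reads and 1 star read cannot have less than 10%. The median was 35.7% with fewer than 10 mature reads, 13.2% with 10 to under 100, 3.55% with 100 to under 1000, 6.00% with 1000 to under 10000 and 4.95% with 10000 or more. Within the class of 100 to under 1000 reads it ran from 0.155% to 58.2%. Summed over all 282, star reads were 4.83% of the reads of both arms, and 12.1% without the most abundant hairpin, which alone decides this value.

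**Figure D2:**
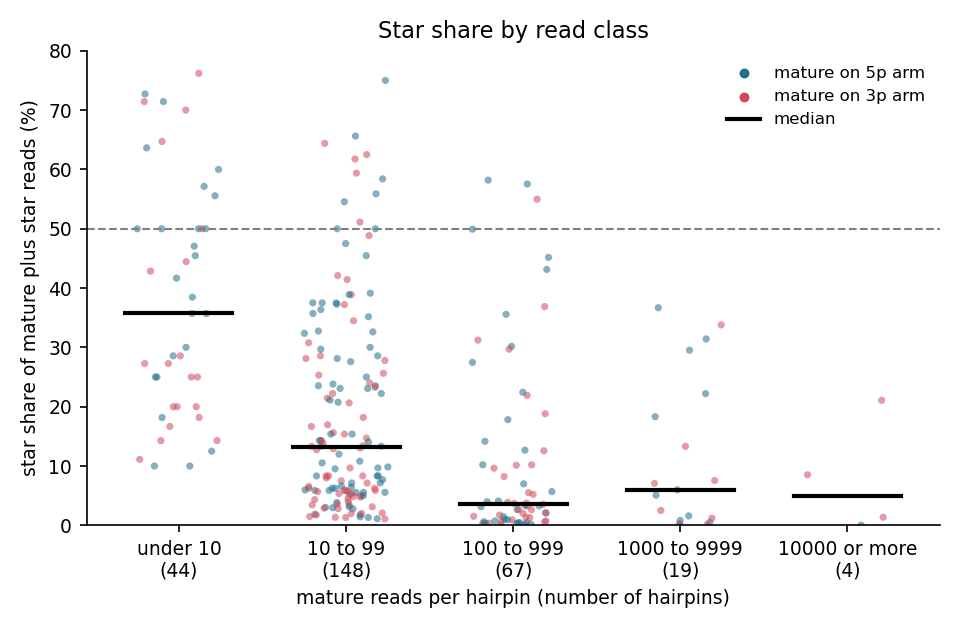
Star share, the percentage of mature plus star reads that came from the star arm, for each of the 282 hairpins by class of mature reads, with the number of hairpins in brackets and a black bar at the median. Medians are 35.7%, 13.2%, 3.55%, 6.00% and 4.95% from the lowest class to the highest, and points above the dashed line at 50% have more star than mature reads.

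In 23 hairpins the arm called star had more reads than the arm called mature, and in 7 the counts were equal. Of the 23, 10 had fewer than 10 mature reads and 5 had at least 100 reads on both arms together. Among these 5, the hairpin of scaffold 371 had 47 mature and 85 star reads, a star share of 64.4% (exact interval 55.6% to 72.5%). That of scaffold 15666 had 414 and 576, or 58.2% (exact interval 55% to 61.3%), and that of scaffold 1303 had 566 and 767, or 57.5% (54.8% to 60.2%). In these 3 the interval lay above 50%. They were picked because star reads led, so this describes the counts and tests nothing. The star sequence of scaffold 1303 was also listed on scaffold 4095, again with 767 reads but opposite 1324 mature reads. Whether these are the same star reads is not stated, and the interval does not cover this. The interval included 50% on scaffold 21717 (52 mature and 73 star reads, 49.2% to 67.1%) and on scaffold 34 (122 and 149, 48.8% to 61.0%). The hairpin of scaffold 3242 had 997 mature and 994 star reads, a star share of 49.9%.

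Loop reads were rare. They were counted in 14 of the 282 hairpins (4.96%), against 8 of 167 hairpins with 0 star reads (4.79%) and 24 of 72 seed-matched ones (33.3%). Of all 820 entries, 85 (10.4%) had loop reads. More than 3 were counted in 7 of the 282. The highest counts were 195 on scaffold 15899, 97 on scaffold 198 and 34 on scaffold 747. The last of these stands out by proportion, with 101 mature and 59 star reads. Loop reads exceeded star reads in 1 hairpin, that of scaffold 204, with 9 loop reads and 1 star read.

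Both arms served as the mature one in nearly equal numbers, 5p in 145 of the 282 hairpins (51.4%) and 3p in 137. The 5p share was 37.1% of the 167 hairpins with 0 star reads, 65.3% of the 72 seed-matched ones and 49.3% of all 820 entries. By abundance it was 54.5% with fewer than 10 mature reads, 51.4% with 10 to under 100, 50.7% with 100 to under 1000, 52.6% with 1000 to under 10000 and 1 of 4 hairpins with 10000 or more.

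Argonaute proteins are known to favour U as the first base of the strand they hold. The mature sequence began with U in 143 of the 282 hairpins (50.7%), with A in 77 (27.3%), with C in 38 (13.5%) and with G in 24 (8.51%). U was first in 56.9% of the hairpins with 0 star reads, in 70.8% of the seed-matched ones and in 60% of all 820 entries. Among the 19 hairpins with 1000 to under 10000 mature reads it was first in 6 (31.6%), and among the 4 most abundant it was first only on scaffold 2789. The class of 100 to under 1000 reads had the highest share, 58.2%.

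The star sequence began with U just as often as the mature one, in 143 hairpins (50.7%). In the whole list the star began with U in 265 of 820 entries (32.3%). The listed star began with U in 46 of the 167 hairpins with 0 star reads (27.5%), where no star read stands behind it, and in 12 of the 72 seed-matched ones (16.7%), where C was the most frequent first base (47.2%). Both arms began with U in 81 of the 282 hairpins (28.7%), against 15.0% and 9.72% in those classes, and neither arm did in 77 (27.3%). The star U was seen with the mature sequence on either arm, in 55.9% of hairpins with a 5p mature sequence and 45.3% of those with a 3p one. It was more frequent in hairpins of few reads: 59.1% with fewer than 10 mature reads, 54.7% with 10 to under 100, 44.8% with 100 to under 1000, 26.3% with 1000 to under 10000 and 1 of 4 hairpins with 10000 or more. By star reads it was 51.1% with 1 to 9, 52.1% with 10 to under 100 and 43.5% with 100 or more. The seed-matched class has far more reads, and the part of read number in the gap to it was not tested.

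**Figure D3:**
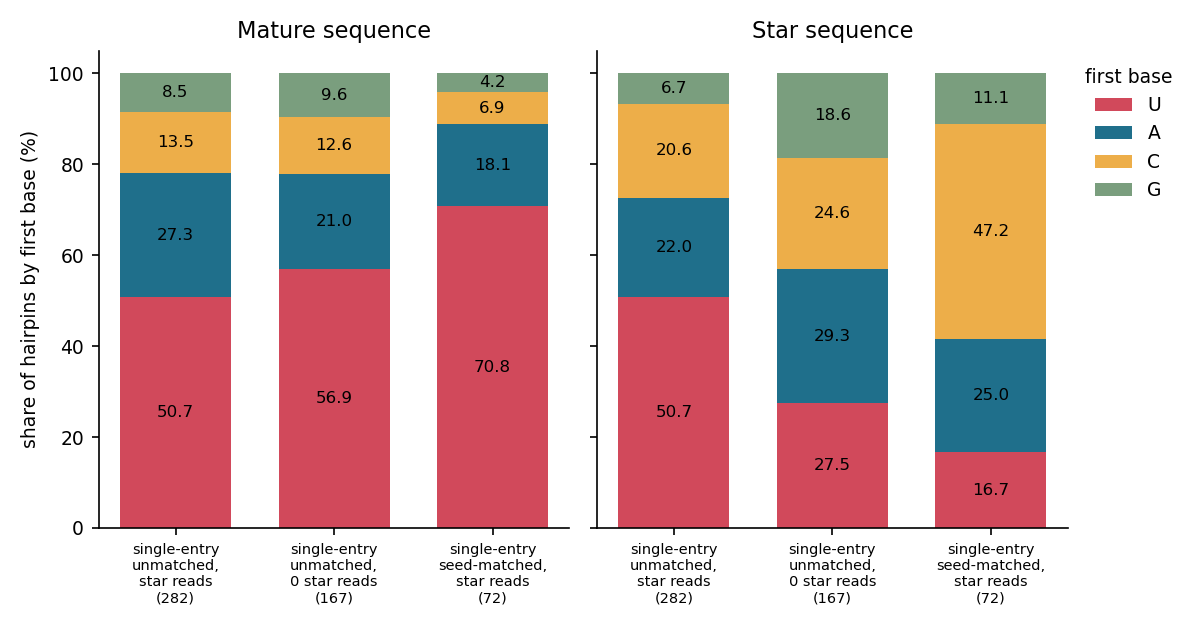
Share of hairpins by the first base of the mature sequence (left) and of the star sequence (right), for the 282 single-entry unmatched hairpins with star reads, the 167 with 0 star reads and the 72 single-entry seed-matched hairpins with star reads. Star sequences begin with U in 50.7%, 27.5% and 16.7% of the 3 classes.

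Most mature sequences had the length known for Dicer products. The mature sequence was 22 nt long in 144 of the 282 hairpins (51.1%), 21 nt in 64, 23 nt in 50 and 20 nt in 17, with extremes of 19 and 25 nt. A length of 21 to 23 nt was found in 91.5%, against 85.0% with 0 star reads, 87.5% when seed-matched and 86.5% of all 820 entries. The share of 22 nt was 38.6% with fewer than 10 mature reads, 48.0% with 10 to under 100, 61.2% with 100 to under 1000 and 68.4% with 1000 to under 10000, and 2 of the 4 hairpins with 10000 or more were 22 nt long. The shortest mature sequence, aCGGCCAUggucacgguca on scaffold 2060 (seed in capitals), had 1734 mature and 28 star reads. The longest, uUCCUGCAgugagccagagacgggg on scaffold 166207, had 5 and 2. Star sequences were 22 nt long in 128 hairpins (45.4%), 21 nt in 59, 23 nt in 37 and 20 nt in 36, with extremes of 18 and 30 nt. The mature arm was the longer one in 119 hairpins, the star arm in 82, and both were equal in 81.

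The listed precursors had a median length of 59 nt (46 to 88 nt), and the part between the arms had a median of 15 nt (quartiles 13 and 18). When the precursors were folded by computer, the median energy was -0.40 kcal/mol per base in the 282 hairpins, -0.42 in the hairpins with 0 star reads and -0.42 in the seed-matched ones, where a lower value is a more stable fold. A median of 78.3% of the mature bases were paired, against 77.3% and 83.0%. The median GC content of the mature sequence was 45.5%, against 47.8% and 44.2%.

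The ends of the 2 arms at the base of the hairpin were compared in the predicted fold. Drosha is known to leave 2 bases unpaired at the 3′ end. An overhang of exactly 2 nt was found in 111 of 281 hairpins (39.5%), of 1 nt in 72 (25.6%), of 3 nt in 40 (14.2%) and of 0 nt in 31 (11%), and 79.4% had 1 to 3 nt. With 0 star reads, 143 of 164 (87.2%) had exactly 2 nt, and of the seed-matched hairpins 32 of 72 (44.4%). Over the whole list it was 457 of 812 (56.3%). How the program placed the star ends is not stated in the sources used here, and in the class without star reads these ends rest on no read. Within the 282, the share with 2 nt was 36.6% with 1 to 9 star reads, 43.1% with 10 to under 100 and 52.2% with 100 or more.

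**Figure D4:**
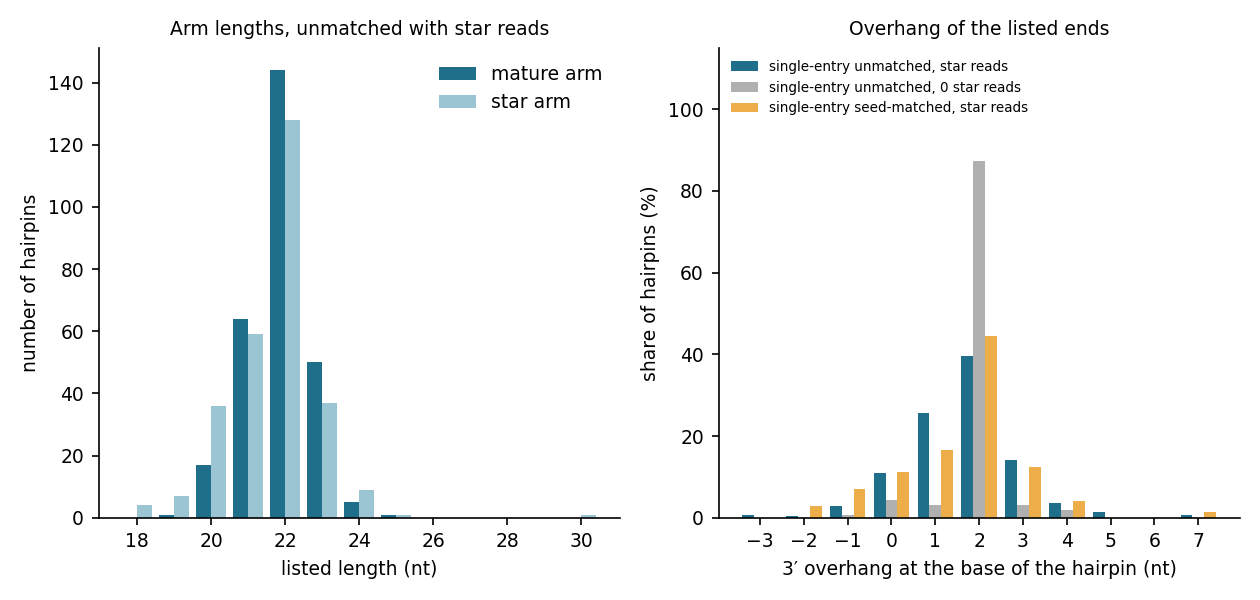
Left, number of the 282 hairpins by listed length of the mature and the star arm in nt. Right, share of hairpins by 3′ overhang at the base of the predicted fold in nt, for the 282 hairpins and the 2 other classes; an overhang of 2 nt is found in 39.5% of the 282, in 87.2% of those with 0 star reads and in 44.4% of the seed-matched ones.

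Seeds were shared little. The 282 mature sequences held 274 different seeds, and 8 of these occurred in 2 hairpins each, 16 hairpins in all. No seed occurred in 3. In the seed-matched class 12 of 51 seeds were shared by several hairpins, and among hairpins with 0 star reads 3 of 164. The seed of 12 of the 282 also occurred in a hairpin with 0 star reads. The 5 shared seeds with most reads are shown with the seed in capitals, by scaffold, because a common seed is how miRNAs are grouped into families.
Scaffold 1810: cAAACCAUucugugcuguuacu
Scaffold 2942: cAAACCAUuuuguacuguuagu
Scaffold 4095: cCUCUUUCccuguugcacuacu
Scaffold 1303: aCUCUUUCccuguugcacuacu
Scaffold 1336: uUGCCUACuguugaguauaca
Scaffold 5025: uUGCCUACuauugaguauacaac
Scaffold 398: uUUCUUGUaggcuauauaaca
Scaffold 4316: gUUCUUGUuugacuccugca
Scaffold 1164: uGGGGAAGguucugagccgcagu
Scaffold 11075: aGGGGAAGuacuucagcugauu

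The first pair had 4390 mature reads on scaffold 1810 and 1518 on scaffold 2942, both on the 3p arm, with 359 and 39 star reads. Their mature sequences had 9 bases in a row in common and their star sequences 19. The second pair had 1324 reads on scaffold 4095 and 566 on scaffold 1303, and these mature sequences differ only in their first base. Both hairpins list the same star sequence with 767 reads each, and the list does not say whether these are the same reads. The third pair had 654 and 9 reads and shared a run of 11 bases. The other two pairs shown had 66 and 13 reads, and 45 and 16 reads, and shared no run beyond the 7 bases of the seed. Of the 8 pairs, 5 had no common run of 10 or more bases.

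The fold partner of some unmatched sequences carried a seed that the list names. The list names an entry by an example miRNA with the same seed. A listed name thus gives a seed, and different mature sequences can carry it. Bases 2 to 8 of the star sequence equalled the seed of a seed-matched miRNA in 8 of the 282 hairpins (2.84%). This was close to the share of the whole list, 25 of 820 entries (3.05%). It was 2 of 167 (1.20%) with 0 star reads and 4 of 72 (5.56%) when seed-matched. Of the 8 hairpins, the 7 with most mature reads are shown by their star sequence, with the seed in capitals. They are set beside the closest seed-matched mature sequence of the list.
Star, scaffold 1810: uAGCAGCAcaucaugguuugua
Listed as miR-457b-5p: uAGCAGCAcgucaugguuugua
Star, scaffold 2942: aAGCAGCAcaucaugguuug
Star, scaffolds 4095 and 1303: cAGUGCAAuaaugaaagggc
Listed as miR-130b: cAGUGCAAuauuaaaagggc
Star, scaffold 14439: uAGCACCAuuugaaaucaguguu
Listed as miR-29a: uAGCACCAuuugaaaucagu
Star, scaffold 5198: uCAGUAACauggauucauccugu
Listed as miR-459-5p: uCAGUAACaaggauucauccugu
Star, scaffold 747: uAAGGUGCaucuagugcagu
Listed as miR-18b-5p: uAAGGUGCaucuagugcagaua

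On scaffold 14439 (scaffold 14439:3675-3740, minus strand) the star arm contained the whole 20 nt of the sequence listed as miR-29a, known in mammals for holding down collagen genes. It had 808 star reads opposite 981 mature reads, a star share of 45.2% (exact interval 42.8% to 47.5%). The miR-29a sequence itself was listed with 807 mature reads. Whether these are the same reads as the 808 star reads is not stated, and the interval does not cover this. On scaffold 747 (scaffold 747:58313-58375, minus strand) the star arm shared an unbroken run of 19 bases with miR-18b-5p. It had 59 star reads opposite 101 mature reads, or 36.9%. The stars of scaffolds 4095 and 1303 shared a run of 10 bases with miR-130b. Those of scaffolds 1810 and 2942 shared runs of 12 and 10 bases with miR-457b-5p. On scaffold 5198 the star shared a run of 13 bases with miR-459-5p and had 69 reads opposite 152. These are the longest unbroken runs, and a single differing base ends a run, so they do not count all matching bases. The eighth hairpin, on scaffold 78355, had 1 star read and a longest run of only 8 bases in common with a different sequence listed under miR-457b-5p. So 7 of the 8 had at least 39 star reads.

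A seed shifted by 1 base was found in 6 of the 282 hairpins (2.13%), against 2 of 167 (1.20%) and 9 of 72 (12.5%). In the whole list the count was 59 of 820 entries (7.20%). Only the seeds of seed-matched entries of the list were searched. On scaffold 3707 (scaffold 3707:65772-65829, plus strand) the whole mature sequence was contained in a sequence listed under miR-181c-5p, a family known from lymphocyte development in mice, and began 1 base after it. The shared bases are in capitals.
Scaffold 3707: ACAUUCAUUGCUGUCGGUGGGU
Listed as miR-181c-5p: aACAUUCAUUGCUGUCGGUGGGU
The hairpin had 4736 mature and 39 star reads, while the longer sequence was listed with 176810 mature reads on scaffold 10776. That sequence was listed in several entries, so these reads cannot be assigned to scaffold 10776 alone. On scaffold 14306, with 7293 mature and 1120 star reads, bases 3 to 9 equalled the seed listed as miR-2188-3p. The mature sequences of scaffolds 14306, 13272 (149 mature reads), 10543 (94), 988 (24) and 13504 (24) had no common run of 16 or more bases with a seed-matched sequence. Counting every kind of entry, 11 of the 282 mature sequences had such a run with another mature sequence of the list. It was a seed-matched sequence for 1 of them, another of the 282 for 6 and a different unmatched one for 4.

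An arm of 1 hairpin reappeared in another. The star sequence on scaffold 198 is the mature sequence on scaffold 15899, shown here with the seed in capitals.
Star on scaffold 198, mature on scaffold 15899: gUGCAUUGuaguugcauugc
Mature on scaffold 198: cAAUGUGUcugcagugcaac
Star on scaffold 15899: cAAUGUUUcugcagugcagca
The shared sequence had 5249 reads in both entries, under 19655 reads of the 3p arm on scaffold 198 and above 2198 reads of the 3p arm on scaffold 15899. The same 5p sequence was thus called star in one hairpin and mature in the other. The 2 hairpins also had the highest loop counts of the 282, and the list does not say whether their 5p reads are the same reads.

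Some hairpins were listed opposite another hairpin on the other strand of the same place. An entry on the opposite strand overlapped 15 of the 282 hairpins (5.32%), against 6 of 167 with 0 star reads (3.59%), 2 of 72 seed-matched (2.78%) and 51 of all 820 entries (6.22%). In 10 of the 15 the other entry was itself one of the 282, which makes 5 pairs, in 3 it was seed-matched and in 2 another unmatched entry. Starts of overlapping entries differed by at most 3 nt. The 3 hairpins opposite a named miRNA and 1 opposite an abundant unmatched one are shown with seeds in capitals, since their mature sequences resemble those of the other strand.
Scaffold 423: cAUCAGCAcugugagaacuga
Opposite strand, listed as miR-101a: uACAGUACugugauaacuga
Scaffold 1737: uAUGGCUCuaugguaauucacu
Opposite strand, listed as miR-183-5p: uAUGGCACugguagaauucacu
Scaffold 132974: uAAGAACUgagcccauagaug
Opposite strand, listed as miR-146b: uGAGAACUgaauuccauagaugg
Scaffold 25616: gUAGUGCUuucuacuuuaugga
Opposite strand, unmatched: gUAGUGUUuccuacuuuaugga

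The hairpin opposite miR-146b, which in mammals dampens inflammatory signalling, had 144 mature and 5 star reads, against 3341038 mature reads for miR-146b (scaffold 132974:14-75, minus strand). The hairpin opposite miR-101a had 406 mature and 3 star reads, against 1510404 for miR-101a. The one opposite miR-183-5p, known from sensory organs, had 250 mature reads and 1 star read, against 1303. The hairpin of scaffold 25616 had 41 mature and 29 star reads, against 15152 and 11297 listed for the other strand. The mature sequence of each of these opposite entries was listed in several entries. Their reads therefore cannot be assigned to this place alone. The mature sequences of the 2 strands differed by 5 single-base changes, insertions or deletions for miR-146b, 4 for miR-101a, 5 for miR-183-5p and 2 on scaffold 25616. The mismatches allowed in mapping are not stated in the sources used here, and the part of reads of the other strand in these counts was not tested. In the 5 pairs within the 282, reads were uneven: 80310 and 11 on scaffold 199925, 1248 and 10 on scaffold 13251, 381 and 27 on scaffold 1944, 268 and 88 on scaffold 907, and 28 and 3 on scaffold 349376.

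**Figure D5:**
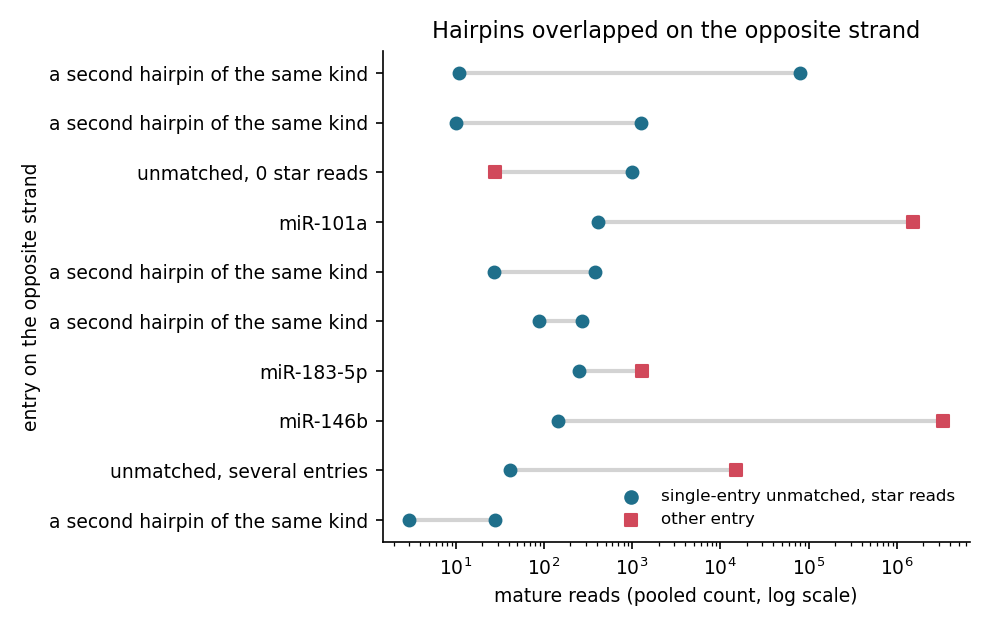
Mature reads (log scale) of hairpins that overlap an entry on the opposite strand, 1 line per place, with the entry on the opposite strand named on the left. Circles are the single-entry unmatched hairpins with star reads and squares other entries. The sequences listed as miR-101a and miR-146b lie at 1510404 and 3341038 reads, opposite hairpins with 406 and 144. Both were listed in several entries, so their reads cannot be assigned to 1 place.

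Few of the hairpins had a neighbour. Within 10 kb on the same strand, without overlap, another entry lay beside 15 of the 282 (5.32%), against 4 of 167 with 0 star reads (2.40%) and 34 of 72 seed-matched ones (47.2%). The neighbour was seed-matched for 9. The hairpins of scaffolds 4095 and 1303 lay 1769 and 7817 nt, between starts, from entries listed under miR-130b. That is the example listed for the seed of their own star arm. The entries at these distances had the same seed but different mature sequences. A second miR-130b entry lay 7208 nt from the hairpin of scaffold 4095. Its mature sequence was that of the entry 7817 nt from the hairpin of scaffold 1303. The hairpin of scaffold 747 lay 402 nt from a miR-20b-5p entry, 518 nt from miR-19b-3p and 920 nt from miR-25-3p. On scaffold 907 a hairpin with 268 mature reads lay 486 nt from an unmatched entry and 5742 nt from a miR-2184 entry. The hairpin opposite it, with 88 mature reads, lay 485 nt from a miR-132-5p entry on its own strand. Its mature sequence differed from that entry's by 4 single-base changes, insertions or deletions. On scaffold 1737 the hairpin with 250 reads lay 306 nt from a miR-96-5p entry with 12 reads.

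The score that the program gave each hairpin had a median of 15.4 and was at least 10 in 165 of the 282 (58.5%). None of the 167 single-entry unmatched hairpins with 0 star reads scored above 1, so the score follows the property used to choose the hairpins and is no independent measure. A score under 1 was given to 42 of the 282, and 10 of these had 10 or more star reads. One of them, on scaffold 10543, scored 0 with 94 mature and 45 star reads.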

How the data were processed

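Liver small RNA libraries of 12 eels are described in the labels, and bcl2fastq 2.17.1.14 was used per the submitters' processing notes. The authors deposited 1 list of hairpins predicted with miRDeep2, per the file headers, with raw mature, star, loop and total read counts for each and no column per animal. They also deposited the miRDeep2 score, a log-odds score with no upper limit. The total equalled the sum of the 3 parts in 820 of 820 entries. Depth per library cannot be read from it. The mapping settings, the program version and the genome build are not stated in the sources used here.

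Scaffold numbers and coordinates are those of the list, with 1 added to the start. The genes around the hairpins were not analysed here. The arm was read from the place of the mature sequence in the precursor. Precursors were folded with RNAfold 2.7.2 at its default temperature. The overhang is the number of bases by which the 3′ end passes the partner of the 5′ end, taken from the first paired base within 6. Star shares are star reads over mature plus star reads. Intervals of star shares are exact binomial (Clopper-Pearson) 95% intervals of single hairpins. They cover counting error only, since reads carry no molecular identifiers. Intervals used to judge the alternatives were taken over hairpins, which are not replicates, and are a yardstick only. An arm sequence listed in several entries had equal counts in some and unequal counts in others.

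Named hairpins are the 10 with most mature reads and the extremes of star share with at least 100 reads on both arms together. Also named are the extremes of loop reads and of length and those on the border of the rule. Up to 5 were named of each kind of shared or shifted seed and of neighbours. The members, lists and rule were chosen with earlier results of these data known. The overhang, opposite strands, runs of bases and hairpins outside that rule were chosen after the values were seen. No statistical test was made. Alternatives were minimum scores of 4 and 10, minimum reads, 1 hairpin per seed and a shorter seed. Python 3.11.15, pandas 2.3.3, numpy 2.4.6, scipy 1.17.1 and matplotlib 3.10.9 were used, and the functions were tested on simulated hairpins.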

Additional observations from a re-analysis of the deposited data

How the results depend on the processing

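Changes under the alternatives were judged against 95% intervals taken over the 282 hairpins. Hairpins are not replicates, so these intervals are a yardstick only. The shares of the 5p arm and of a first U, and the folding energy, stayed inside theirs under every alternative run for them. Of the 282 hairpins, 165 remained at a score of at least 10, 96 with 10 or more star reads and 99 with at least 100 reads on both arms together. With 10 or more star reads, 57.3% were 22 nt long, the median star share was 26.6% and 50 hairpins had at least 100 mature reads. With at least 100 reads on both arms together, these were 60.6% for 22 nt and 3.89% for the star share, and 39.4% of star sequences began with U. Shared seeds fell to 4 and 2 at scores of at least 4 and 10, to 3 with 10 or more star reads and to 2 with at least 100 reads, with fewer hairpins left, and were 18 with a seed of bases 2 to 7. That shorter seed gave 14 star seeds found among seed-matched ones, not 8. Shifted seeds fell to 3 at scores of at least 4 and 10 and with 10 or more star reads. An overhang of 2 nt was found in 45.9% and 46.7% at scores of at least 4 and 10; the cause was not tested. Leaving out hairpins overlapped on the opposite strand, or those whose arms share a run of bases, was chosen after seeing the data and moved none of the shares by more than their interval. No hairpins overlapped on 1 strand within the 282, so merging them changed nothing. No paired analysis was possible because the counts carry no eel or replicate, and replicates could not be left out. Few star reads limit the star shares of most hairpins.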

Other observations

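A group of hairpins was linked by runs of bases in common. Precursors with a run of at least 14 bases in common on either strand were linked. This linked 50 of the 282 hairpins (17.7%) to another entry, against 395 of all 820 entries (48.2%). The share was 32 of 167 with 0 star reads (19.2%) and 46 of 72 seed-matched ones (63.9%). With runs of 12 and 16 bases the share of the 282 was 39.7% and 16%. The group with most of these hairpins held 11 entries on 11 scaffolds, 8 of them from the 282 and none seed-matched. The 8 had 9 to 731 mature reads and 1 to 32 star reads, 1835 and 91 in sum, held 7 different seeds, and had the mature sequence on the 5p arm in 3. A string of 8 bases, ACUAUUGA or its reverse complement UCAAUAGU, occurred in 10 precursors of the list, all of them in this group of 11. It was found from the group itself and is shown in capitals in 4 of the precursors.
Scaffold 97073 (731 mature and 28 star reads): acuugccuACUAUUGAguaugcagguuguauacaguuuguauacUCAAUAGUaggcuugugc
Scaffold 1336 (654 mature and 3 star reads): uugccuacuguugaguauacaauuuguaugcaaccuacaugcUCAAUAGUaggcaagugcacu
Scaffold 1540 (55 mature and 5 star reads): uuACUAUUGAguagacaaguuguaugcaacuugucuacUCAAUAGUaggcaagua
Scaffold 5025 (9 mature and 8 star reads): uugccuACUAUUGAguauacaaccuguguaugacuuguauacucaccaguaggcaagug
The string lay in both arms on scaffolds 97073 and 1540, in the 3p arm on scaffold 1336 and in the 5p arm on scaffold 5025.

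In 13 of the 282 hairpins (4.61%) the mature and star sequences themselves had at least 10 bases in a row in common. The share was close to that of the whole list, 34 of 820 entries (4.15%). It was 9 of 167 with 0 star reads (5.39%) and 0 of 72 seed-matched ones. Only a read that lies wholly within the shared run would match either arm. The runs on scaffolds 14345 (14 bases) and 1881 (12 bases) are shorter than the arms listed there. The longest runs were 20 bases on scaffolds 988 and 3297, and the most reads were 1880 mature and 3 star reads on scaffold 14345. The shared run is in capitals.
Mature, scaffold 988: ugcUCUCUGGACUCCGCAGAGUC
Star, scaffold 988: UCUCUGGACUCCGCAGAGUCag
Mature, scaffold 14345: uauccgcCGGAACGUUCUGGA
Star, scaffold 14345: CGGAACGUUCUGGAguauaccu
Scaffold 988 had 24 mature and 4 star reads, and scaffold 3297 had 16 and 1. On scaffold 1881 the star arm led, with 5 mature and 16 star reads, the highest star share of the 282 at 76.2%, over a common run of 12 bases.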
